A study of Brachypodium distachyon with 9 samples.

Results

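The genes described here are 3 protein phosphatases of the 2C type, PP2C30, PP2C50 and PP2C53, and the bZIP transcription factor TRAB1, in droughted shoots of the grass Brachypodium distachyon. They were chosen by name, as the rows of the deposited annotated table whose gene name, synonym or description contains PP2C, protein phosphatase 2C or TRAB1. That choice found 5 of the 28454 features of that table, from 4 genes, because TRAB1 has a protein-coding feature and a separate non-coding transcript. Counts were deposited for 28607 features. The study compared 3 genotypes of the line 21-3 by RNA sequencing, with 3 biological replicates each: the mutant gf14h-1, homozygous for a CRISPR/Cas9 exon 1 change in the gene of the 14-3-3 protein GF14h, the mutant hdac19-2b, homozygous for such a change in the gene of HISTONE DEACETYLASE 19, and wild type. Per the labels, each mutation gives a premature stop codon, and the design text describes both mutants as CRISPR lines (CR:GF14h-1 and CR:HDAC19-2b) in the wild type's background. Each mutant is represented by 1 allele. All plants, wild type included, had grown for 18 days and then gone 15 days without water. Whole aboveground tissue was taken at the 5-leaf stage, 3 h post dawn. No watered plants are among these samples, so the values are levels under drought and not responses to it.

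Abscisic acid is the plant hormone of water deficit. In its absence, protein phosphatases 2C of clade A hold SnRK2 kinases inactive by removing their phosphates. When the hormone binds its PYR/PYL/RCAR receptors, the receptors block the phosphatases, the kinases are released and they phosphorylate bZIP factors that bind abscisic acid response elements in promoters. In rice, the phosphatases of the names PP2C30, PP2C50 and PP2C53 belong to that clade and act as negative regulators of the hormone's signalling, and TRAB1 is one of the bZIP factors the kinases activate. 14-3-3 proteins bind phosphorylated clients, and in barley they bind bZIP factors of this class. The comparisons thus ask whether transcripts of the phosphatase and bZIP steps depend on GF14h or on HDAC19 in droughted shoots.

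The members lay on 3 chromosomes of the RefSeq assembly Brachypodium_distachyon_v3.0. PP2C30 (LOC100834162) was on the plus strand of chromosome 1, from 65890879 to 65892271. PP2C50 (LOC100830931) and PP2C53 (LOC100846802) were on the plus strand of chromosome 2, from 16431819 to 16434149 and from 12998857 to 13000934. TRAB1 (LOC100836269, synonym ABF2) was on the minus strand of chromosome 3. Its protein-coding feature ran from 40490569 to 40495397, and its non-coding transcript XR_731665.3 from 40493702 to 40495849. These TRAB1 features share 1696 bases of genomic span. None of the 3 phosphatase genes overlapped another annotated feature, and the nearest other gene was 642 bases from PP2C50, 1406 from PP2C53 and 9607 from PP2C30. The deposited annotation records that the RefSeq transcript differs from the genome sequence by 2 substitutions in PP2C30, 2 in PP2C50, 4 in PP2C53 and 3 in TRAB1. That genome is of the line Bd21, whereas the plants were of line 21-3.

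Library totals ran from 3302835 counts in gf14h-1 replicate 3 to 36632994 in wild type replicate 3. Replicates 1 and 3 of gf14h-1 had fewer detected features (1 count or more) than the others, with 24218 and 23016 against 26072 to 27335, so the members' differences between gf14h-1 and wild type are also given without those libraries, where the remaining gf14h-1 library is assumed to vary like the other genotypes. Markers of green tissue were present, as the chloroplast genes rbcL, psbA, psbB, psaA and psaB summed to between 2574 and 5519 CPM in gf14h-1 libraries, between 2567 and 5178 in hdac19-2b and between 2802 and 6517 in wild type. CPM here are counts scaled to a common library size with TMM factors, which correct for composition. The transcripts of both mutated genes are not analysed here, since no row used here pairs the names GF14h and HDAC19 with a locus, and the genotypes were therefore not checked at the RNA level. In whole shoots, fewer cells that use a gene and less of its RNA per cell cannot be told apart.

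No member passed the test in either mutant. Differences were tested in edgeR by quasi-likelihood, with p-values adjusted by Benjamini-Hochberg over 23898 features. In gf14h-1 against wild type, 0 of the 5 members were called, where 0.146% of all features were called (35 features). In hdac19-2b against wild type, 0 of 5 were called, with 0.272% of all features called (65 features), and in gf14h-1 against hdac19-2b 0 of 5, with 0.0167% (4 features). At an unadjusted p under 0.05 there was likewise none of the 5 in any comparison, where 7.56%, 7.19% and 9.03% of all features fell under that value, in the same order. The DESeq2 Wald test called none of the 5 either, and 1.32%, 2.24% and 1.11% of the features it tested. None of the 5 had levels that separated a pair of genotypes without overlap, which 11.9%, 16.8% and 14% of all features did. The 5 members' median log2 fold change was -0.07 for gf14h-1 and -0.06 for hdac19-2b, each against wild type, and 0.38 between the mutants, beside 0.00, 0.02 and 0.00 for all features. Both comparisons with wild type share the same wild type libraries. What the data bound is the size of change that each gene could have had, given below as 95% intervals. These intervals assume that a feature has the same spread in every genotype.

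**Figure D1:**
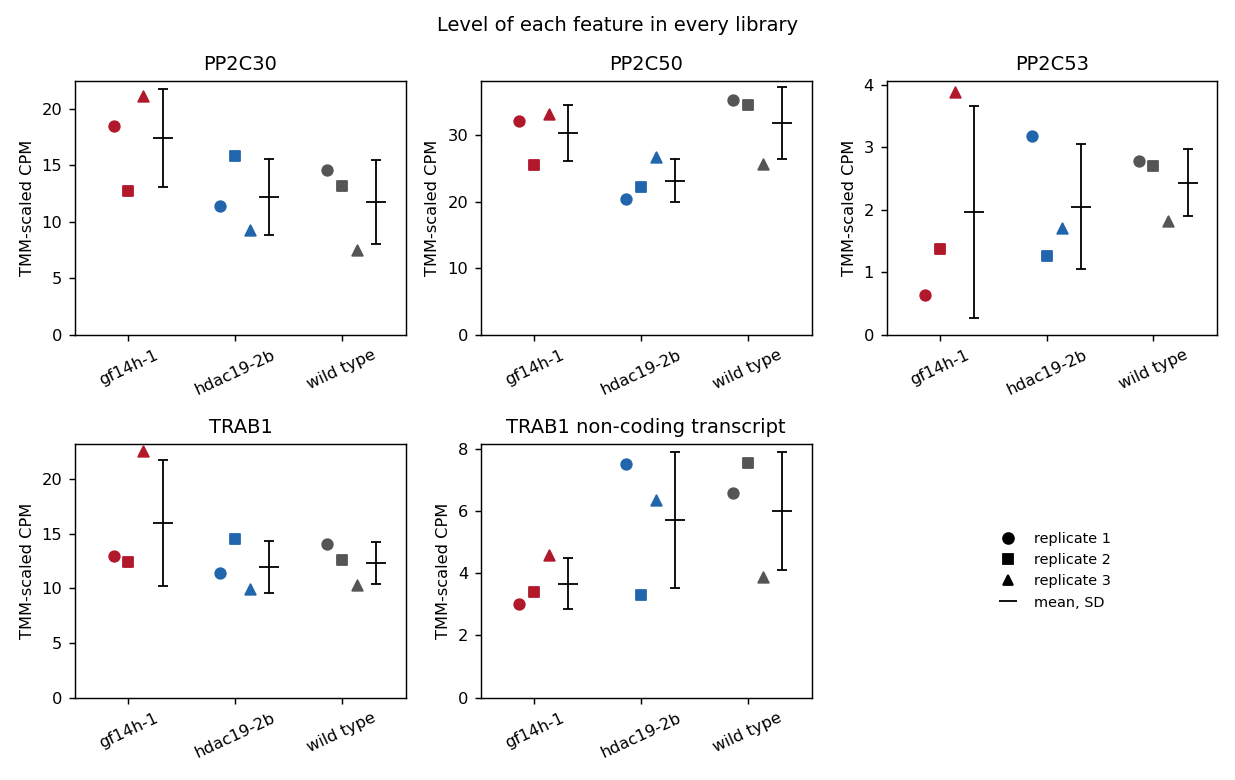
Level of each of the 5 features in every library, in TMM-scaled CPM, with 1 panel per feature, gf14h-1 left, hdac19-2b in the middle and wild type right; bars give the mean and SD of 3 libraries. In every panel the libraries of each mutant overlap those of wild type, and gf14h-1 replicate 3 is the highest library for PP2C30, PP2C53 and TRAB1. Wild type replicate 3 is the lowest wild type library in every panel.

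PP2C50, in rice a clade A phosphatase that binds abscisic acid receptors, had 32.1, 25.5 and 33.2 CPM in gf14h-1 replicates 1, 2 and 3. It had 20.4, 22.2 and 26.7 CPM in hdac19-2b, against 35.3, 34.6 and 25.6 CPM in wild type. The hdac19-2b libraries included the 2 lowest of all 9. The overlap with wild type came from the highest hdac19-2b library, replicate 3, which stood just above the lowest wild type library, replicate 3. PP2C50 averaged 23.1 ± 3.23 CPM in hdac19-2b and 31.8 ± 5.41 CPM in wild type (SD, n = 3 each). The fitted log2 fold change was -0.46 (SE 0.22; edgeR adjusted p 0.766). This was the smallest unadjusted p of any member in any comparison, at 0.0649 in edgeR and 0.0582 in DESeq2. The 95% interval of the ratio of hdac19-2b to wild type ran from 0.518 to 1.02. Over the 17 alternatives tried, the log2 fold change stayed between -0.60 and -0.38, and the adjusted p between 0.398 and 1. The -0.60 was reached without wild type replicate 3, the deepest library.

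In gf14h-1, PP2C50 averaged 30.3 ± 4.16 CPM (SD, n = 3), a ratio to wild type of 0.950 with an interval of 0.674 to 1.34. A 2-fold difference in either direction lies outside that interval. Without gf14h-1 replicates 1 and 3, the log2 fold change against wild type was -0.32, and with all libraries -0.07. Against hdac19-2b, the gf14h-1 mean gave a log2 fold change of 0.38 (SE 0.23; edgeR adjusted p 0.664). Among replicates PP2C50 varied the least of the 5 in both mutants, while in wild type TRAB1 did, at 15.5%. The coefficient of variation of PP2C50 was 13.7% in gf14h-1, where the median over 21989 features averaging at least 1 CPM was 37.1%. It was 14.0% in hdac19-2b, beside a median of 19.7%, and 17.0% in wild type, beside 20.8%. These medians cover all levels from 1 CPM up and were not matched to the level of PP2C50.

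PP2C30, in rice a phosphatase that binds both an abscisic acid receptor and a SnRK2 kinase, had 18.5, 12.7 and 21.2 CPM in gf14h-1 replicates 1, 2 and 3. It had 11.4, 15.9 and 9.32 CPM in hdac19-2b, against 14.6, 13.2 and 7.56 CPM in wild type. The 2 highest of the 9 libraries were gf14h-1 replicates 3 and 1, the libraries with the fewest detected features, while gf14h-1 replicate 2 lay within the wild type range. The mean of gf14h-1 was 17.4 ± 4.31 CPM, and that of wild type 11.8 ± 3.72 CPM (SD, n = 3 each). That is a log2 fold change of 0.56 (SE 0.34; edgeR adjusted p 0.804), with an interval of the ratio from 0.881 to 2.46. Without gf14h-1 replicates 1 and 3, the log2 fold change was 0.11. It was 0.31 without wild type replicate 3, which at 7.56 CPM was the lowest of the 9 libraries. In hdac19-2b the mean was 12.2 ± 3.35 CPM (SD, n = 3). The log2 fold change against wild type was 0.05 (SE 0.33), and the interval of the ratio 0.624 to 1.72. Between the mutants the log2 fold change was 0.51 (SE 0.34), and 0.06 without gf14h-1 replicates 1 and 3.

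PP2C53, which in rice also restrains abscisic acid signalling, was the scarcest member. It had 12, 21 and 11 counts in gf14h-1 replicates 1, 2 and 3, which are 0.644, 1.38 and 3.88 CPM. It had 55, 15 and 27 counts in hdac19-2b (3.18, 1.27 and 1.71 CPM), against 39, 33 and 65 counts in wild type (2.79, 2.71 and 1.82 CPM). The gf14h-1 libraries held both the lowest and the highest value of the 9, a 6.03-fold span within 1 genotype, compared with 2.51-fold within hdac19-2b and 1.53-fold within wild type. Counting error alone left the 11 counts of gf14h-1 replicate 3 between 1.94 and 6.94 CPM, and the 12 counts of replicate 1 between 0.333 and 1.12 CPM (exact 95% Poisson intervals), so these libraries differed by more than counting error. PP2C53 averaged 1.97 ± 1.70 CPM in gf14h-1, 2.05 ± 0.999 CPM in hdac19-2b and 2.44 ± 0.536 CPM in wild type (SD, n = 3 each).

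The fitted log2 fold change of PP2C53 against wild type was -0.42 (SE 0.76; edgeR adjusted p 0.972) in gf14h-1 and -0.24 (SE 0.73; edgeR adjusted p 1.00) in hdac19-2b. The intervals of the ratio ran from 0.234 to 2.39 in gf14h-1 and from 0.276 to 2.59 in hdac19-2b. A 2-fold difference of PP2C53 in either direction lies inside both intervals and was not detectable in these libraries, where edgeR's tagwise biological coefficient of variation of PP2C53 was 0.606, the highest of the 5 features. Between the mutants the log2 fold change was -0.18 (SE 0.76). In gf14h-1 the direction depended on single libraries, with a log2 fold change of -1.27 without gf14h-1 replicate 3, 0.03 without replicate 1 and -0.82 without both.

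TRAB1, which in rice binds abscisic acid response elements and is phosphorylated when the hormone is present, had a protein-coding feature at 12.9, 12.4 and 22.6 CPM in gf14h-1 replicates 1, 2 and 3. It was at 11.4, 14.5 and 9.90 CPM in hdac19-2b, against 14.1, 12.6 and 10.3 CPM in wild type. All libraries lay between 9.90 and 14.5 CPM except gf14h-1 replicate 3, the shallowest. Means were 16.0 ± 5.73 CPM in gf14h-1, 11.95 ± 2.36 CPM in hdac19-2b and 12.3 ± 1.91 CPM in wild type (SD, n = 3 each). The log2 fold change against wild type was 0.35 in gf14h-1 (SE 0.31; edgeR adjusted p 0.908), 0.05 without gf14h-1 replicate 3 and 0.01 without replicates 1 and 3. Between the mutants it was 0.39 (SE 0.31; edgeR adjusted p 0.775). In hdac19-2b against wild type it was -0.04 (SE 0.30; edgeR adjusted p 1.00), with an interval of the ratio from 0.614 to 1.54. The interval of the ratio of gf14h-1 to wild type was 0.800 to 2.03, so a 2-fold increase lies just inside it.

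**Figure D2:**
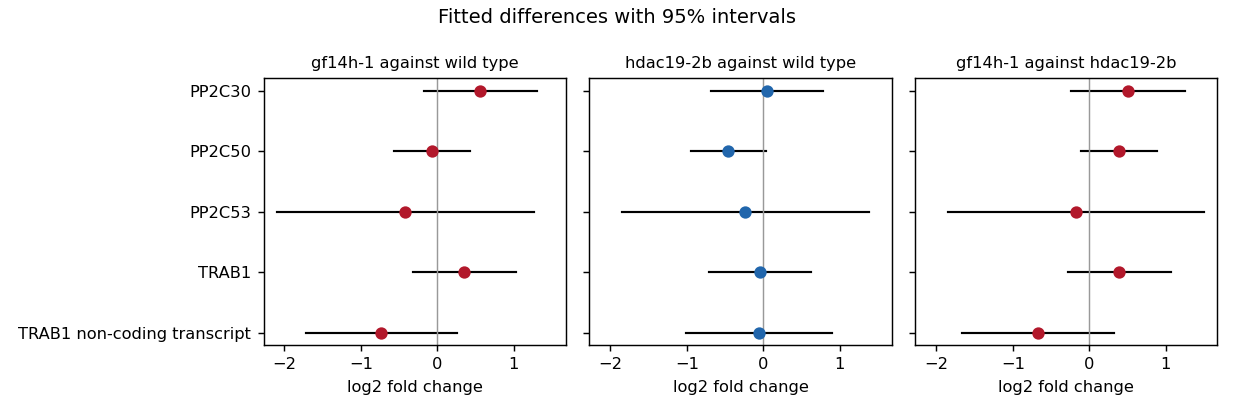
Log2 fold change of each feature in 3 comparisons, with 95% intervals from edgeR's quasi-likelihood fit of 9 libraries; points right of 0 are above in the genotype named first. Every interval crosses 0, PP2C50 has the narrowest and PP2C53 the widest.

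The non-coding transcript of TRAB1 had 3.01, 3.41 and 4.59 CPM in gf14h-1 replicates 1, 2 and 3. It had 7.51, 3.29 and 6.34 CPM in hdac19-2b, against 6.57, 7.55 and 3.87 CPM in wild type. Means were 3.67 ± 0.822 CPM in gf14h-1, 5.71 ± 2.18 CPM in hdac19-2b and 5.996 ± 1.91 CPM in wild type (SD, n = 3 each). The log2 fold change in gf14h-1 was -0.73 (SE 0.45; edgeR adjusted p 0.808) against wild type and -0.67 (SE 0.45; edgeR adjusted p 0.717) against hdac19-2b. It was -0.81 against wild type without gf14h-1 replicates 1 and 3. In hdac19-2b it was -0.06 (SE 0.44) against wild type. The intervals of the ratio to wild type ran from 0.303 to 1.19 in gf14h-1 and from 0.494 to 1.86 in hdac19-2b. A 2-fold decrease lies inside both. Deposited counts of both TRAB1 features were fractional in all 9 libraries, while their sum was whole in each, so whole reads had been divided between the features before deposit. Counts of the 3 phosphatase genes were whole in every library.

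Summed over both features, the TRAB1 gene had 16.1, 15.7 and 27.2 CPM in gf14h-1 replicates 1, 2 and 3. The sum was 18.8, 17.9 and 16.1 CPM in hdac19-2b, against 20.5, 20.0 and 14.3 CPM in wild type. Here gf14h-1 replicates 1 and 2 lay inside the wild type range. The log2 fold change of the sum against wild type was 0.08 (SE 0.28; edgeR adjusted p 0.982) in gf14h-1 and -0.05 (SE 0.27; edgeR adjusted p 1.00) in hdac19-2b, from a fit to counts summed per gene. The 95% intervals of these log2 fold changes ran from -0.52 to 0.69 in gf14h-1 and from -0.65 to 0.55 in hdac19-2b.

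The non-coding share of the TRAB1 counts was lower in gf14h-1 than in wild type without overlap. That held for 5.95% of the 605 genes described below. The non-coding transcript held 18.9%, 21.6% and 16.5% of the gene's counts in gf14h-1 replicates 1, 2 and 3. It held 39.6%, 18.4% and 39.0% in hdac19-2b, against 31.9%, 37.5% and 27.4% in wild type. All 3 gf14h-1 libraries lay below all 3 wild type libraries, with a mean of 19.0 ± 2.59% in gf14h-1 and 32.3 ± 5.09% in wild type (SD, n = 3 each). The exact two-sided permutation p was 0.1, and 0.3 after Benjamini-Hochberg adjustment over the 3 comparisons. As 0.1 is the smallest that this test can give with 3 against 3 libraries, it cannot bring the difference past 0.05. Leaving out gf14h-1 replicates 1 and 3 adds no check here. Replicate 2, at 21.6%, lies below wild type because all 3 gf14h-1 libraries do. In hdac19-2b, replicate 2 lay near gf14h-1 and the other 2 libraries were above every wild type library. The exact permutation p was 1 against wild type (mean 32.3 ± 12.1% in hdac19-2b, n = 3), and 0.3 for gf14h-1 against hdac19-2b.

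This share was looked at after the values of both features had been seen. Of 605 genes that had both kinds of feature and at least 20 counts in every library, 5.95% had a share in gf14h-1 that lay below wild type with no overlap, TRAB1 among them. Only this direction, the one TRAB1 showed, was counted, whereas the permutation p covers both directions. The median share over those genes ranged over libraries from 10.4% to 13.8% for gf14h-1, from 11.3% to 12.9% for hdac19-2b and from 11.5% to 12.1% for wild type. Counting error on a share of TRAB1 was wide in gf14h-1 replicate 3, whose 77 counts allowed 9.31% to 27.1% (exact Clopper-Pearson 95% interval).

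**Figure D3:**
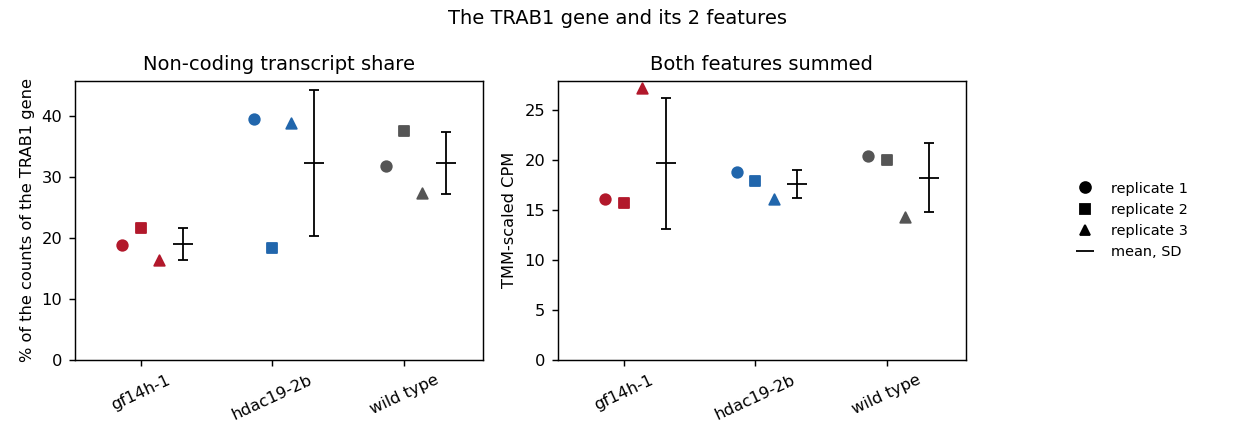
Left, share of the TRAB1 gene's counts that was assigned to the non-coding transcript, in percent; right, level of both features summed, in TMM-scaled CPM; each point is 1 library, and bars give the mean and SD of 3 libraries. The gf14h-1 shares, 16.5% to 21.6%, lie below the wild type shares, 27.4% to 37.5%, while the summed levels overlap.

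Per kilobase of genomic span, which includes any introns and so understates genes that have them, PP2C50 stood first in all 3 genotypes and PP2C53 last. PP2C50 had 13.0 ± 1.79 CPM per kilobase in gf14h-1, with 9.92 ± 1.39 in hdac19-2b and 13.6 ± 2.32 in wild type. PP2C30 came next, at 12.5 ± 3.10 CPM per kilobase in gf14h-1, with 8.75 ± 2.40 in hdac19-2b and 8.46 ± 2.67 in wild type. The ranges of these neighbours overlapped in both mutants but not in wild type, where PP2C50 spanned 10.97 to 15.1 and PP2C30 5.43 to 10.5 CPM per kilobase. The TRAB1 protein-coding feature lay below PP2C50 and PP2C30. It had 3.31 ± 1.19 CPM per kilobase in gf14h-1, with 2.47 ± 0.488 in hdac19-2b and 2.55 ± 0.395 in wild type. The TRAB1 non-coding transcript had 1.71 ± 0.382 CPM per kilobase in gf14h-1, with 2.66 ± 1.01 in hdac19-2b and 2.79 ± 0.889 in wild type. Its mean was thus below that of the protein-coding feature in gf14h-1. In hdac19-2b and wild type it was above, with overlapping ranges. PP2C53 was at 0.947 ± 0.817 CPM per kilobase in gf14h-1, with 0.987 ± 0.481 in hdac19-2b and 1.17 ± 0.258 in wild type (SD, n = 3 for each of these values).

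Ratios of counts within a library do not depend on how libraries are scaled, and the 4 genes give 6 of them, with TRAB1 as the sum of its features. In gf14h-1 against wild type, 3 of the 6 did not overlap, in hdac19-2b against wild type 1 of 6, and between the mutants none. Where every other tested feature was set over each of the 4 genes, 11%, 14.1% and 13.4% of the ratios did not overlap, in the same order. The 3 ratios that separated gf14h-1 all have PP2C30 on top, so they share its counts and are not separate observations. Set over every other feature in turn, PP2C30 was higher in gf14h-1 with no overlap in 18.2% of the ratios. The ratio of PP2C30 to PP2C50 was 0.574, 0.499 and 0.638 in gf14h-1 replicates 1, 2 and 3, against 0.413, 0.382 and 0.296 in wild type. Its mean was 0.570 ± 0.0699 in gf14h-1 and 0.364 ± 0.0608 in wild type (SD, n = 3 each). PP2C30 to TRAB1 averaged 0.914 ± 0.212 in gf14h-1 and 0.633 ± 0.0882 in wild type (SD, n = 3 each). PP2C30 to PP2C53 was 28.7, 9.24 and 5.45 in gf14h-1 replicates 1, 2 and 3, against 5.23, 4.88 and 4.15 in wild type. Its means were 14.5 ± 12.5 in gf14h-1 and 4.75 ± 0.549 in wild type (SD, n = 3 each). That gf14h-1 mean rested on replicate 1, with its 12 PP2C53 counts, and was 7.35 without it. In gf14h-1 replicate 2, the ratios of PP2C30 to PP2C50, TRAB1 and PP2C53 were 0.499, 0.805 and 9.24. The highest wild type values were 0.413, 0.706 and 5.23. Since these 3 ratios were picked for not overlapping, replicate 2 had to lie above wild type, and this is no separate check. The ratio of PP2C50 to TRAB1 was 1.08, 1.25 and 1.64 in hdac19-2b replicates 1, 2 and 3, against 1.71, 1.72 and 1.81 in wild type. Each of these 4 had an exact two-sided permutation p of 0.1, the smallest possible, which became 0.45 after Benjamini-Hochberg adjustment over 18 tests (6 ratios in 3 comparisons).

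Over the 6 ratios, the coefficient of variation among replicates ran from 12.2% to 86.2% in gf14h-1, from 21.9% to 65.7% in hdac19-2b and from 2.66% to 16.7% in wild type. For the 3 ratios without PP2C30 it was 24.6% (PP2C50 to TRAB1), 56.9% (PP2C53 to TRAB1) and 84.1% (PP2C50 to PP2C53) in gf14h-1, with 21.9%, 42.7% and 44.9% in hdac19-2b, against 3.12%, 2.66% and 5.86% in wild type. The ratios with PP2C30 varied more in wild type, by 16.7% for PP2C30 to PP2C50, 13.9% for PP2C30 to TRAB1 and 11.5% for PP2C30 to PP2C53. For PP2C30 to PP2C50 the spread was smaller in gf14h-1, at 12.2%, than in wild type. The difference in this spread was not tested, and the spread of ratios among other features was not measured. Levels of single features had a higher median coefficient of variation in gf14h-1, 37.1%, than in hdac19-2b (19.7%) and wild type (20.8%). The PP2C53 ratios of gf14h-1 rest on only 12, 21 and 11 PP2C53 counts. The wild type agreement for PP2C53 is closer than its counts can resolve, since 33 counts in wild type replicate 2 have an exact 95% Poisson interval of 22.7 to 46.3.

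Over the 9 libraries, log2 CPM of PP2C30 and TRAB1 had a Pearson correlation of 0.85, and 0.80 after each genotype's mean was taken out. Both were highest in gf14h-1 replicate 3. PP2C53 and the TRAB1 non-coding transcript had the next highest, at 0.74, and 0.72 with the genotype means taken out. The other pairs of protein-coding members lay between -0.03 and 0.44, and between 0.14 and 0.60 within genotypes, where PP2C53 with TRAB1 reached 0.60 and PP2C30 with PP2C50 0.58. TRAB1 and its non-coding transcript were at -0.17, and at 0.18 within genotypes. These values are descriptions of 9 libraries that share depth and composition. Among 13511 features with a mean of at least 10 CPM, those most like TRAB1 were LOC100842454, LOC100833877 and LOC100821000, with correlations of 0.95, 0.95 and 0.94 over the 9 libraries. Those most like PP2C50 were LOC100826993, LOC100832594 and LOC100832234, at 0.94 for each. A correlation over 0.9 was reached by 16 features for TRAB1 and by 10 for PP2C50.

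Between the phosphatases and TRAB1 stand SnRK2 kinases, and 9 members of that family, named SAPK in rice, are annotated here. Which of the 9 act at that step was not tested. These 9 were the only other genes found by the names searched for the hormone's pathway. No receptor, abscisic acid synthesis gene, dehydrin or other bZIP factor carries such a name in the annotated table. None of the 9 was called in any comparison, and the smallest edgeR adjusted p was 0.580 for gf14h-1 and 0.305 for hdac19-2b against wild type, and 0.414 between the mutants. At an unadjusted p under 0.05 there were 1, 2 and 3 of the 9, beside 7.56%, 7.19% and 9.03% of all features, and DESeq2 called 0 in each comparison. Levels did not overlap for 3, 3 and 4 of the 9, beside 11.9%, 16.8% and 14% of all features. Their median log2 fold change was 0.18 for gf14h-1 against wild type, -0.11 for hdac19-2b against wild type and 0.42 for gf14h-1 against hdac19-2b.

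Of the 5 most abundant by CPM, SAPK2 averaged 63.7 ± 5.63 CPM in hdac19-2b and 105 ± 20.7 CPM in wild type, and SAPK5 42.6 ± 4.07 CPM in hdac19-2b and 70.9 ± 11.5 CPM in wild type (SD, n = 3 each). Their log2 fold changes were -0.72 (SE 0.22; edgeR adjusted p 0.305) and -0.74 (SE 0.25; edgeR adjusted p 0.416). SAPK4, SAPK7 and SAPK8 had -0.49, -0.11 and -0.07 in hdac19-2b. In gf14h-1 against wild type, SAPK2, SAPK4, SAPK5, SAPK7 and SAPK8 had log2 fold changes of -0.43, -0.51, 0.07, 0.31 and 0.30, and edgeR adjusted p from 0.739 to 0.988. The smallest edgeR adjusted p of that comparison, 0.580, belonged to a kinase outside these 5. In gf14h-1 against hdac19-2b, these 5 had 0.29, -0.02, 0.80, 0.42 and 0.37 in the same order, and edgeR adjusted p from 0.414 to 0.994.

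**Figure D4:**
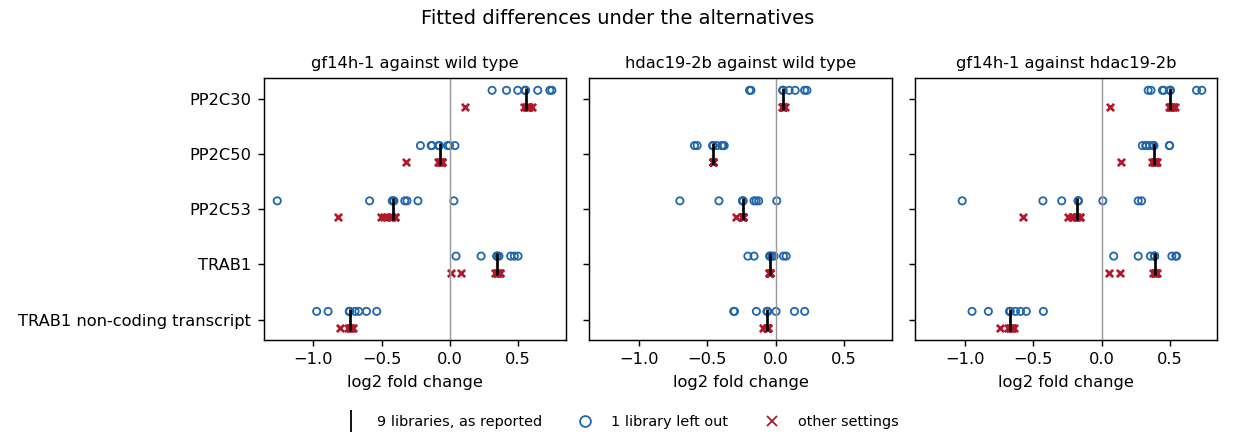
Log2 fold change of each feature in 3 comparisons as reported (bars), with 1 library left out (circles) and under the other settings (crosses). PP2C50 in hdac19-2b stays between -0.60 and -0.38, and PP2C53 in gf14h-1 ranges from -1.27 to 0.03.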

How the data were processed

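Per the labels' protocols, RNA extracted with TriReagent was poly(A)-selected and sequenced. The authors deposited estimated counts per annotated feature, 69.1% to 83.2% of them whole to within 0.001 in a library. They were rounded to whole numbers, although raw counts had been planned for. A normalized signal was deposited as well, a median ratio normalization per the file headers. Divided by a single factor for each library, 99.9% to 100.0% of its values above 0 came out whole (tolerance 0.1). The test on those reads called 35, 65 and 4 features. That table lacks 153 of the 28607 features. Software named in the submitters' processing notes is HISAT2, DESeq2, Partek and FastQC 0.11.9, with no roles. The counting program, strand setting and build are, in the sources used here, not given. Reads of a gene and of a transcript antisense to it could therefore not be told apart.

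Tests used the quasi-likelihood functions of edgeR 4.0.16 (R 4.3.3). Genotype was the sole term, and the fit took 9 libraries together, with TMM scaling and the default expression filter. It kept 23898 features with 99.9% of counts, all 5 members among them. P-values were adjusted with Benjamini-Hochberg over all features, and 0.05 was the threshold. SE is the size of the log2 fold change over the root of the F statistic, and intervals use that SE. The code was tested on simulated counts. Alternatives were DESeq2 1.42.0 and those in the closing section. Replicate libraries all differed by more than sampling noise (smallest chi-square per degree of freedom 17.98).

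Depth ran from 3302835 to 36632994 counts, and 3 counts equal 0.0819 to 0.908 CPM before TMM scaling. Intervals of counts and shares cover counting error only. Members, lists and tests were chosen with earlier results of these data known. All members are named. The features most like TRAB1 and PP2C50 are the 3 with the highest correlation, and SnRK2 kinases are named if called or among the 5 highest by CPM. Gene loci and coordinates were matched to RefSeq for all members, 1-based. Sequences were not used here.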

Additional observations from a re-analysis of the deposited data

How the results depend on the processing

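The count of members called stayed at 0 in all 3 comparisons under all 17 alternatives: DESeq2, its size factors in edgeR, no filter on low counts, only the 6 libraries compared, counts summed per gene, a replicate block, gf14h-1 replicates 1 and 3 left out, each library left out in turn, and reads recovered from the normalized table, the last chosen after seeing the data. Of 252 single values, 239 kept their direction and 13 reversed, each with 1 library left out. With a library left out, log2 fold changes ran from -0.21 to 0.038 for PP2C50 and from -1.27 to 0.031 for PP2C53 in gf14h-1 against wild type. In hdac19-2b against wild type they ran from -0.19 to 0.23 for PP2C30, from -0.70 to 0.0086 for PP2C53, from -0.20 to 0.077 for TRAB1 and from -0.31 to 0.21 for its non-coding transcript. PP2C53 ran from -1.02 to 0.29 between the mutants. The causes were not tested.

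Same-numbered samples are not paired by the labels and did not deviate together (correlations -0.14 to 0.02). With the replicate block the call counts over all features were 4, 12 and 2, against 35, 65 and 4 without it. 0 members were called, and PP2C50 in hdac19-2b against wild type had a log2 fold change of -0.46. Over the alternatives, calls among all features ran from 4 to 339 in gf14h-1 and from 2 to 563 in hdac19-2b against wild type, and from 1 to 278 between the mutants. Depth was lowest for PP2C53, with 11 to 65 counts per library, and its spread among libraries beyond counting error was also the highest of the 5 features.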
